A study of Mus musculus with 6 samples.

Results

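Cholesterol and fatty acid synthesis was described through 32 genes chosen by their role in the pathways, with every probe that the array annotation gives them. They are 18 enzymes of the sterol arm, 11 enzymes of the fatty acid arm and 3 regulators. The array held 49 probes of 29 of these genes. The genes Acat2, Hmgcs1 and Fdft1 had no named probe and were not analysed here. A probe past the detection filter was available for 23 genes, and these were tested among 10418 named genes and 13916 items in all (an item is a gene or an unnamed probe).

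The samples were the fornical conjunctival epithelium of mouse embryos at stage E14.5, on a mixed background of FVB and 129. This fold of surface ectoderm joins the eyelid to the eyeball, and the lacrimal gland grows out of it. The KO group held 3 embryos, A, B and C, with the genotype Fgfr2 fx/fx and Le-Cre, and the WT group held 3 wild type embryos. Fgfr2 is a receptor for fibroblast growth factors, and Le-Cre is active in the surface ectoderm of the eye. Le-Cre was present in the KO embryos alone, so its own effect and the loss of Fgfr2 cannot be told apart. Each embryo gave 1 array from 15 ng of amplified RNA, and the labels do not name litters. The comparison of KO with WT asks which genes depend on Fgfr2 in this epithelium.

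Cells build cholesterol from acetyl-CoA through mevalonate, farnesyl diphosphate, squalene and lanosterol, and they build fatty acids from acetyl-CoA through malonyl-CoA, followed by elongation and desaturation. The SREBP transcription factors, encoded by Srebf1 and Srebf2, drive the genes of both arms. When sterols run low they are escorted from the endoplasmic reticulum and cut free by a pair of proteases, and INSIG proteins hold them back when sterols are plentiful. In growing epithelium both arms supply membrane.

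All 6 arrays lay on 1 slide. Probes were detected (detection p below 0.05 against the array's negative controls) at 34.2% to 34.9% on KO arrays and 48.5% to 50.6% on WT arrays. The brightest Fgfr2 probe read 12.11, 12.34 and 12.30 in KO A, B and C and 12.16, 11.97 and 12.15 in WT A, B and C (log2 intensity), with overlapping groups. The labels do not say which exons were lost, so that probe does not check the genotype. All 10 surface epithelium markers were detected on all 3 WT arrays, and Cldn4 alone of them was undetected on all KO arrays. Cldn4 in WT B and WT C (5.055 and 4.78) lay under the lowest signal that KO arrays detected (5.36 to 5.41), so no direction was read from it. None of the 10 passed. Epcam, Krt15, Krt18 and Krt8 read under every WT array in all KO embryos, with log2 fold changes of -1.59, -1.22, -2.62 and -1.90 (adjusted p = 0.065, 0.12, 0.14 and 0.19), and the other 5 detected in KO ranged from 0.0054 to 0.66. Krt5, at 0.66 (limma adjusted p = 0.31), read above every WT array in all KO embryos. Of all items 17.2% had the KO values under the WT values and 11.3% had them above. Summed over the list, the 10 epithelial markers reached 16858 to 18624 in WT and 14742 to 17954 in KO (normalized intensity). The summed level of 10 periocular mesenchyme markers was 552.7 to 603 in WT and 3777 to 6796 in KO, and 5 of the 9 tested were higher in KO. That of 5 measured erythroid markers was 550.1 to 764 in WT and 4686 to 5048 in KO, and 2 of 4 tested were higher. Over all items 0.826% were called higher in KO. The 5 adipocyte markers were undetected on every array. Of the macrophage markers Tyrobp, Mrc1 and Cx3cr1 were detected on all WT arrays and no KO array, and Aif1 was high in KO A (8.32). Csf1r was detected on no WT array and on 2 KO arrays and was not tested. Tyrobp, Mrc1 and Cx3cr1 each had a WT value (5.29, 4.88 and 4.9) under the lowest signal that KO arrays detected (5.36 to 5.41). Macrophage markers summed to 234 to 288 in WT and 110.1 to 435 in KO, and lens markers to 139 to 266 and 89.0 to 347; none of their tested genes passed. Cryaa, a lens crystallin, was undetected on every array. The crystallin Cryba1 was detected on all WT arrays and 1 KO array, and Crygb on 2 WT and 2 KO arrays. Mip was detected on 2 WT arrays and no KO array. The part of these marker differences in the lipid gene values below was not tested. In bulk tissue, fewer cells of a type and less RNA per cell cannot be told apart.

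None of the 23 tested genes passed the test in either direction (limma across all items, adjusted p below 0.05; smallest adjusted p = 0.077), where 2.41% of all items did, 1.59% lower in KO. At an adjusted p below 0.10 the count was 2, Elovl5 and Msmo1, where 5.49% of all items passed. At an unadjusted p below 0.05 the count was 3, Msmo1, Elovl5 and Insig1, all lower in KO. That share of 23 compares with 19.4% of all items. The values of the groups did not overlap for 5 of the 23, Msmo1, Insig1, Acly, Elovl5 and Scd1, with the KO values under the WT values, where 28.5% of all items did not overlap and 17.2% had the KO values under the WT values. Scd1 was undetected on all KO arrays, and WT A lay under the lowest signal that KO arrays detected, so its separation shows no direction. The log2 fold change (KO minus WT) was negative for 15 of 23 genes, against 54.3% of all items. All 23 genes were detected on all WT arrays and 13 of them on all KO arrays, so genes entered the test mainly through WT. Values ran from -2.58 for Msmo1 to 1.12 for Dhcr7.

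**Figure D1:**
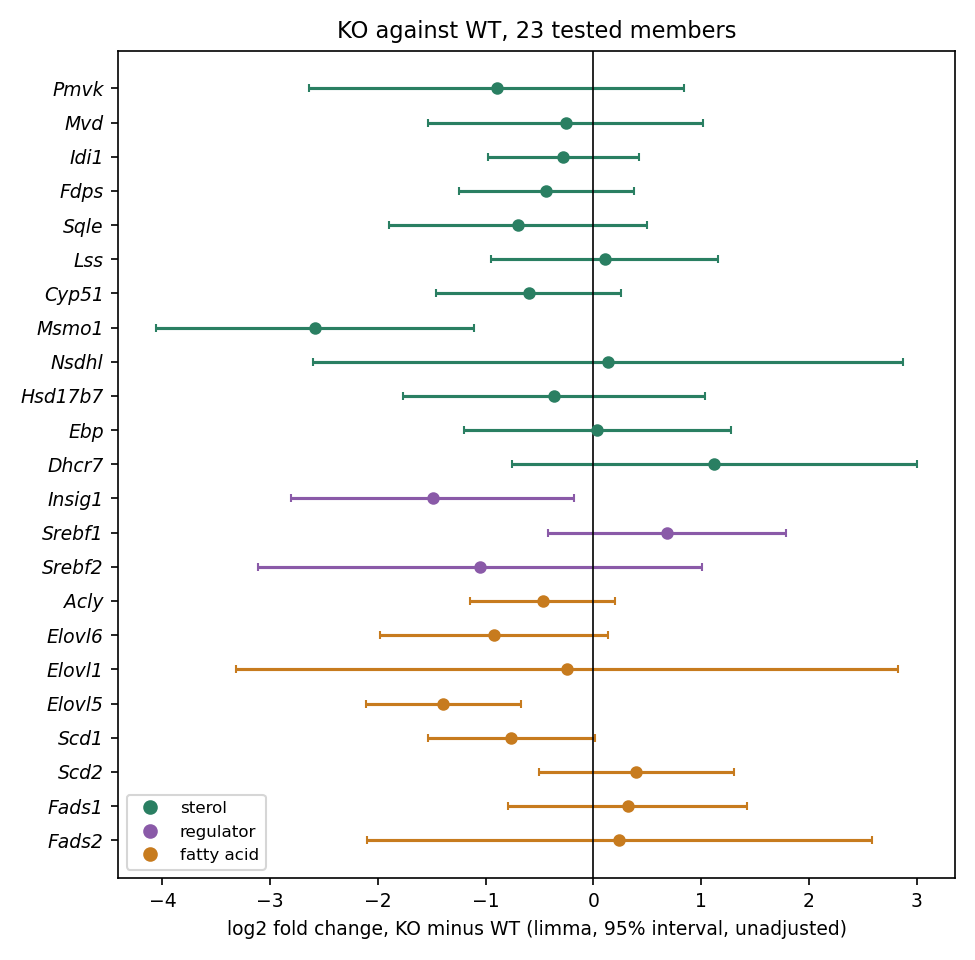
Log2 fold change, KO minus WT, of each of the 23 tested genes, with its 95% interval from limma, before any adjustment. Points are coloured by sterol arm, regulators and fatty acid arm. The intervals of Msmo1, Insig1 and Elovl5 lie below 0, and every other interval reaches or crosses 0.

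The sterol and fatty acid arms stood close to each other. The median log2 fold change was -0.32 over 12 tested sterol enzymes and -0.36 over 8 tested fatty acid enzymes, against -0.088 over all items. In the sterol arm 8 of 12 values were negative and in the fatty acid arm 5 of 8. Set against the WT mean of each gene, the sterol arm's median was -0.29, -0.19 and -0.51 in KO A, B and C, and the fatty acid arm's was -0.50, -0.13 and -0.052. The sterol arm therefore lay above the fatty acid arm in KO A and below it in KO C. With KO A left out, the fatty acid median was 0.043, and with WT B left out it was -0.11.

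The KO embryos differed from one another more than the WT embryos did. The SD of a gene was larger in KO than in WT for 22 of 23 genes, with a median SD of 0.81 in KO and 0.36 in WT. Over all items 83.0% had the larger SD in KO, and the medians were 0.80 and 0.30. In KO A 11 of 23 genes lay below all WT arrays and 4 above them, in KO B 10 and 5, and in KO C 13 and 7. Of all items 45.9%, 44.7% and 45.7% lay below all WT arrays in KO A, B and C, and 36.3%, 36.6% and 36.6% above them. In KO C 4 of the 8 fatty acid genes lay below and the other 4 above the WT range.

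**Figure D2:**
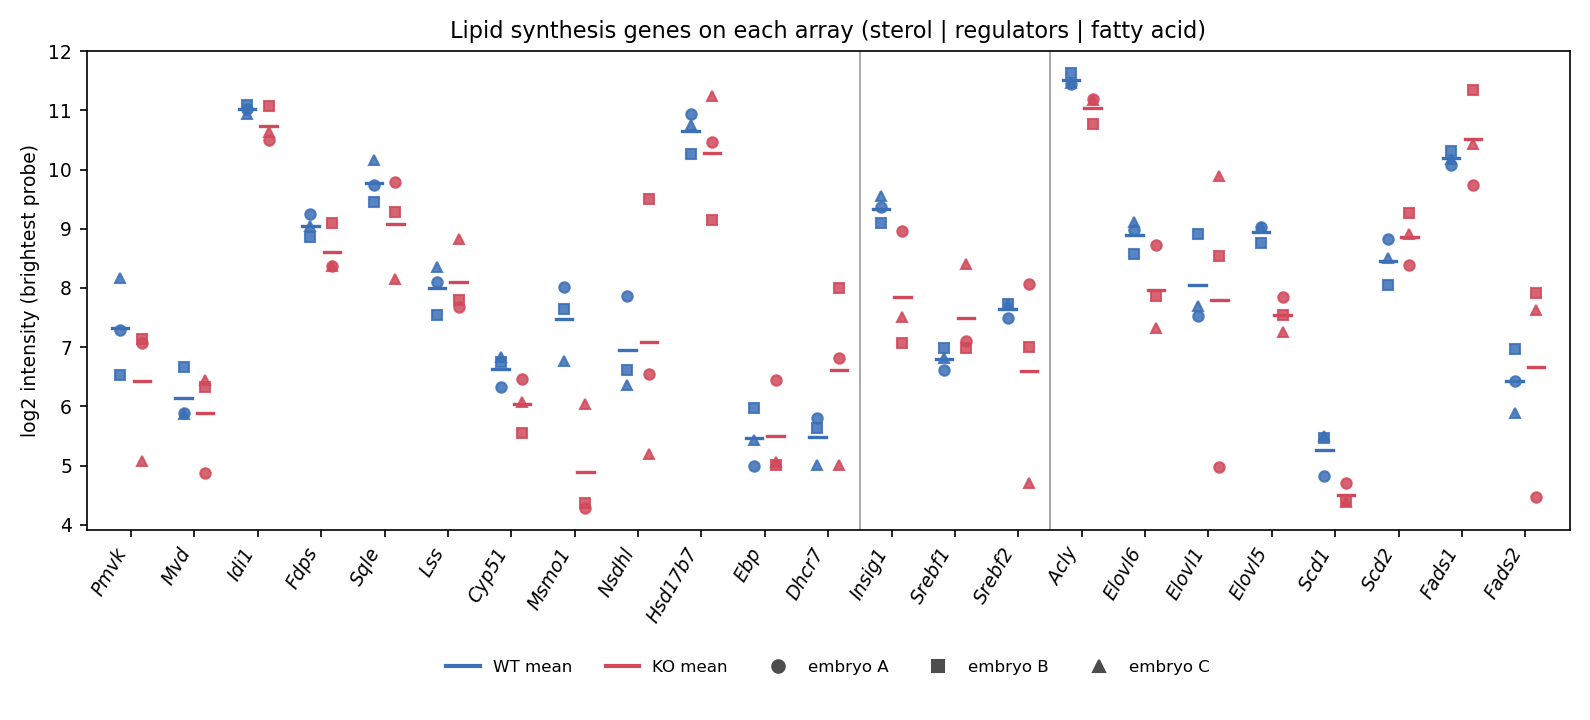
Log2 intensity of the brightest probe of each tested gene on the 3 WT arrays (blue) and the 3 KO arrays (red), with the group means as bars and a marker shape for each embryo letter. The labels do not say that letters pair WT with KO embryos. KO points spread more widely than WT points for every gene but Scd1.

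Of the enzymes from mevalonate to farnesyl diphosphate, Idi1 and Fdps were read on all arrays. Idi1, the isopentenyl diphosphate isomerase, read 11.02, 11.08 and 10.94 in WT A, B and C and 10.502, 11.07 and 10.63 in KO A, B and C. KO B lay among the WT arrays and the other KO embryos just under them, and the log2 fold change was -0.28 ± 0.29 (SE; limma adjusted p = 0.65). Fdps, which makes farnesyl diphosphate, read 9.24, 8.86 and 9.05 in WT and 8.37, 9.10 and 8.37 in KO. It showed the same order by this probe, KO B inside the WT range and KO A and C below it, and the log2 fold change was -0.43 ± 0.33 (SE; adjusted p = 0.53). The other Fdps probe was not past the filter and was detected on WT A and KO C alone. It read 8.04 in KO C, above all WT arrays, against 4.36 to 4.74 on the other arrays.

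Pmvk, a mevalonate pathway kinase, read 7.29, 6.53 and 8.16 in WT and 7.08, 7.15 and 5.07 in KO. Only KO C lay below the WT range, and it was not detected there. Mvd, the decarboxylase of that pathway, had overlapping groups, and its log2 fold change was -0.26 ± 0.52 (SE; adjusted p = 0.83). Mvk, its first kinase, was undetected on all 6 arrays by its only probe.

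Squalene and lanosterol enzymes were mixed. Sqle, squalene epoxidase, read 9.73, 9.45 and 10.15 in WT and 9.79, 9.28 and 8.16 in KO by its brightest probe, with KO A inside the WT range and KO C well under it. Its 3 probes had log2 fold changes of -0.70, -1.68 and 0.96, so they differed in sign. The probe at -1.68 was detected on KO B alone of the KO arrays, so its size is uncertain. The probe at 0.96 was dim, with raw signals of 126.6 to 142.8 in WT and 110.3 to 140.1 in KO. Its WT values, 4.81 to 5.05, lay under the lowest signal that KO arrays detected, so its sign is uncertain. Lss, lanosterol synthase, read 8.09, 7.55 and 8.35 in WT and 7.68, 7.80 and 8.83 in KO by its brightest probe, with overlapping groups.

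A dimmer Lss probe was detected on all WT arrays and on no KO array and lay at least 1.97-fold lower there (adjusted p = 0.074 with every probe tested), which is the smallest p of any probe of the 32 genes. Cyp51, the lanosterol demethylase, read 6.32, 6.75 and 6.83 in WT and 6.46, 5.56 and 6.08 in KO. KO A lay inside the WT range, and the log2 fold change was -0.60 ± 0.35 (SE; adjusted p = 0.41). Without scaling between arrays it was -1.89 (adjusted p = 0.020). Tm7sf2, a sterol reductase, was detected on 2 WT arrays and no KO array and was not tested.

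The 3 enzymes that remove the sterol C4 methyl groups together differed in their patterns. Msmo1, the methylsterol oxidase of this step, read 8.01, 7.64 and 6.77 in WT and 4.28, 4.36 and 6.04 in KO. All KO values lay under all WT values, and the probe was detected on KO C alone of the KO arrays. Its log2 fold change was -2.58 ± 0.61 (SE; limma adjusted p = 0.097), and since KO A and KO B lay at background the size is uncertain. It passed with median scaling (adjusted p = 0.017), without scaling between arrays (0.0090) and without KO C (0.038), where 7.67%, 14.9% and 4.02% of items passed, and adjusted p ran from 0.0090 to 0.33 over all alternatives.

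Nsdhl, the dehydrogenase of the same step, read 7.86, 6.62 and 6.36 in WT and 6.54, 9.51 and 5.19 in KO. KO B stood above every WT array and KO C below them. The other probes past the detection filter gave the same KO B peak, at 9.41 and 9.36. The remaining probe, which was not past the filter, was undetected on all KO arrays. By the brightest probe the log2 fold change was 0.13 ± 1.12 (SE; adjusted p = 0.97), with a 95% interval from -2.61 to 2.87, and without KO B it was -1.08.

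Hsd17b7, the ketoreductase of that step, read 10.93, 10.25 and 10.76 in WT and 10.46, 9.15 and 11.24 in KO, with KO B lowest and KO C highest of all arrays. Its log2 fold change was -0.36 ± 0.58 (SE; adjusted p = 0.78). KO B thus held the highest Nsdhl value and the lowest Hsd17b7 value.

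Of the last sterol steps, Dhcr7, the reductase that yields cholesterol, read 5.80, 5.64 and 5.01 in WT and 6.81, 8.003 and 5.01 in KO. KO A and KO B stood above all WT arrays and KO C level with the lowest WT array, where it was not detected. Its log2 fold change was 1.12 ± 0.77 (SE; adjusted p = 0.48). It was 0.43 without KO B, 1.92 without KO C, 0.48 with median scaling and 0.17 with no scaling between arrays. Before normalization the raw signal of KO A, 154.5, lay inside the WT raw range of 141.4 to 175.3. Ebp, a sterol isomerase, was detected on KO A alone of the KO arrays, and its log2 fold change was 0.036 ± 0.51 (SE; adjusted p = 0.98). Sc5d, a sterol desaturase, was undetected on all arrays.

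**Figure D3:**
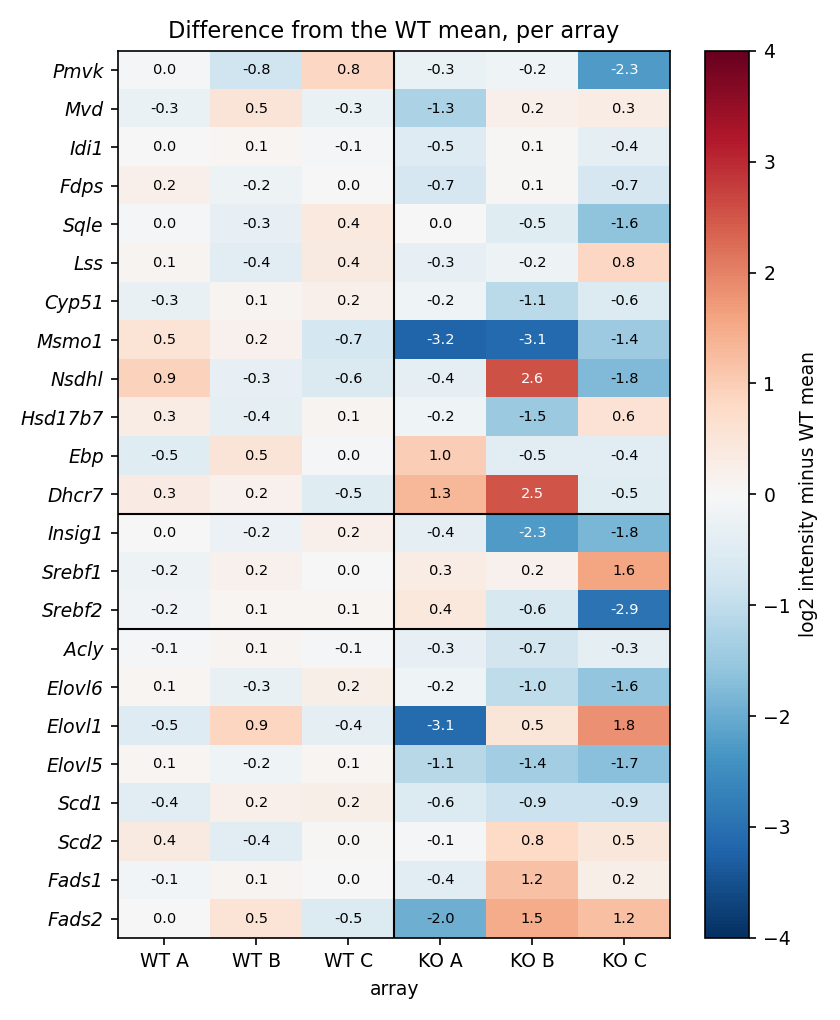
Log2 intensity minus the WT mean for each tested gene (rows, sterol arm above, regulators, then fatty acid arm) on each array (columns). Blue cells lie below and red cells above the WT mean. Msmo1 and Elovl5 are blue in all KO embryos, while Nsdhl, Elovl1 and Fads2 change colour between KO embryos.

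Among the regulators, Insig1 read under every WT array in all KO embryos. Insig1, the endoplasmic reticulum anchor of SREBP and itself an SREBP target, read 9.36, 9.10 and 9.55 in WT and 8.97, 7.06 and 7.51 in KO. The groups did not overlap, and KO A was nearest to WT. Its log2 fold change was -1.49 ± 0.54 (SE; limma adjusted p = 0.21), with a 95% interval from -2.80 to -0.18. Leaving out KO A was the only alternative under which it passed (log2 fold change -2.05, adjusted p = 0.042, with 3.88% of items called), and adjusted p ran from 0.042 to 0.49. A second probe, detected on all arrays, gave -0.88. The other 2 probes were detected on all WT arrays and no KO array, with bounds of at least 1.69-fold and 1.30-fold lower in KO. For the probe with the 1.30-fold bound, WT A and WT C (5.004 and 5.09) lay under the lowest signal that KO arrays detected. That bound rests on WT B alone (7.20), so no direction was read from it.

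Srebf2, the SREBP gene tied most to sterol enzymes, read 7.49, 7.73 and 7.71 in WT and 8.07, 6.998 and 4.70 in KO. KO A lay above the WT range, KO B below it and KO C far below it, and the log2 fold change was -1.05 ± 0.85 (SE; adjusted p = 0.56). Without KO C it was -0.11, and without KO A -1.79. A dimmer Srebf2 probe, detected on all 6 arrays, read 6.25, 6.72 and 5.99 in WT and 5.88, 7.57 and 5.48 in KO, a difference of -0.012. By that probe KO A lay below and KO B above all WT arrays, the reverse of the brightest probe, and KO C lay below them by both. Srebf1, the SREBP gene tied most to fatty acid enzymes, read 6.61, 6.99 and 6.82 in WT and 7.10, 6.98 and 8.40 in KO, and its log2 fold change was 0.68 ± 0.45 (SE; adjusted p = 0.47). Without KO C it was 0.23. A dimmer Srebf1 probe was undetected on all KO arrays, and its WT values, 5.69, 5.34 and 5.27, lay about the lowest signal that KO arrays detected, so no direction was read from it.

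In the fatty acid arm, Elovl5 was the gene nearest to the threshold. Elovl5, which elongates polyunsaturated fatty acids, read 9.03, 8.76 and 9.03 in WT and 7.84, 7.54 and 7.25 in KO. Every KO array detected it and all lay below every WT array by a gap wider than the spread within either group. Its log2 fold change was -1.39 ± 0.29 (SE; limma adjusted p = 0.077), a KO to WT ratio of 0.381 with a 95% interval from 0.231 to 0.627.

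It passed in 5 of 18 alternatives, with adjusted p from 0.014 to 0.31 over all of them. These were no background correction (2.82% of items called), median scaling, no scaling between arrays, no detection filter (2.24%) and detection on all 6 arrays (3.05%). The other members of that elongase family did not follow it alike. Elovl6, which lengthens palmitate, read 8.98, 8.57 and 9.11 in WT and 8.72, 7.86 and 7.32 in KO by its brightest probe (log2 fold change -0.92, adjusted p = 0.31), and its other probe had a value of 0.78. Elovl1, an elongase of very long saturated chains, read 7.52, 8.91 and 7.69 in WT and 4.98, 8.53 and 9.88 in KO. KO A lay below and KO C above all WT arrays, and its 4 probes ran from -1.89 to 0.48.

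Acly, which supplies acetyl-CoA from citrate, read 11.45, 11.64 and 11.46 in WT and 11.19, 10.78 and 11.17 in KO. The groups did not overlap but stood close, and the log2 fold change was -0.47 ± 0.28 (SE; adjusted p = 0.41). The next enzymes of the route, Acaca, which makes malonyl-CoA, and Fasn, the fatty acid synthase, were undetected on all 6 arrays by their only probes. So was Me1, malic enzyme, a source of NADPH. The 6 genes with a probe and none past the filter had raw signals from 92.0 to 138.

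The desaturases showed no common direction. Scd2, a stearoyl-CoA desaturase, read 8.83, 8.04 and 8.51 in WT and 8.40, 9.27 and 8.92 in KO (log2 fold change 0.40, adjusted p = 0.61). Scd1, its paralog, was detected on all WT arrays and no KO array, at 4.83, 5.46 and 5.51 in WT and 4.71, 4.41 and 4.39 in KO (adjusted p = 0.27). On KO arrays the lowest detected signal was 5.36 to 5.41, against 4.62 to 4.67 on WT arrays, so no fold can be given for Scd1.

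Fads1, a desaturase of polyunsaturated fatty acids, read 10.08, 10.32 and 10.18 in WT and 9.74, 11.35 and 10.44 in KO. Fads2, its partner, read 6.43, 6.97 and 5.90 in WT and 4.47, 7.92 and 7.63 in KO. For both, by the brightest probe, KO A lay below all WT arrays while KO B and KO C lay above them. A dimmer Fads2 probe read 5.84, 5.26 and 5.91 in WT and 5.46, 4.98 and 7.71 in KO. By that probe KO A lay inside the WT range, KO B was undetected and only KO C lay above it. A dimmer Fads1 probe was undetected on all KO arrays. The log2 fold changes were 0.32 for Fads1 (adjusted p = 0.76) and 0.24 for Fads2 (adjusted p = 0.92).

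**Figure D4:**
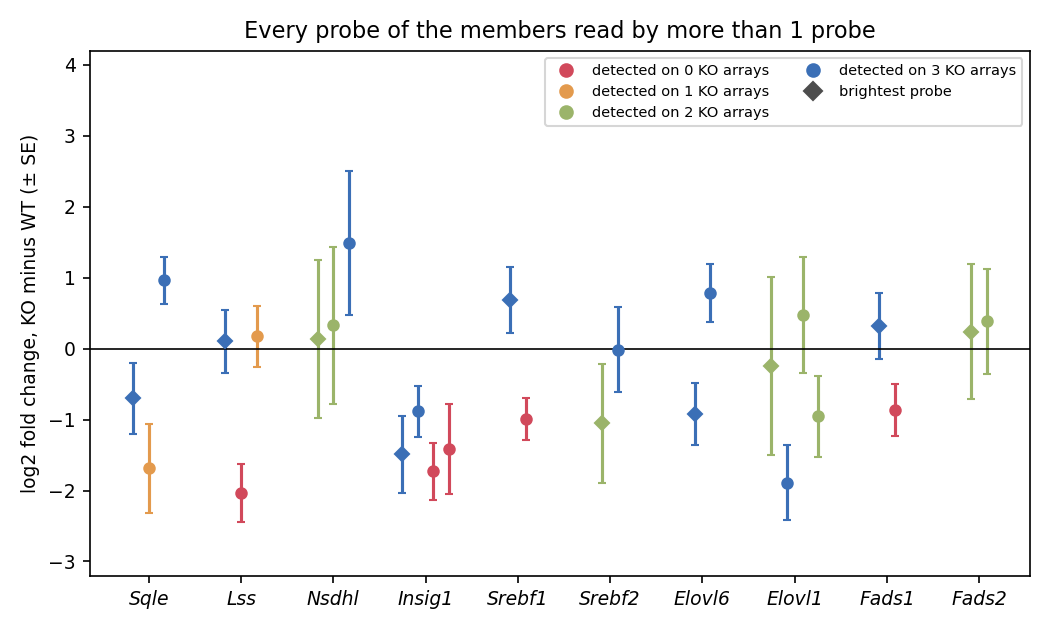
Log2 fold change, KO minus WT, with its SE for every probe past the detection filter of the 10 genes read by more than 1 such probe, 27 probes in all. Colour gives the number of KO arrays that detected the probe and diamonds mark the brightest probe. Points for probes detected on 0 KO arrays compare WT with KO background and show no exact fold. All 4 Insig1 probes lie below 0, while the points of 6 genes fall on both sides of it, for Lss, Srebf1 and Fads1 only through such a probe.

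Read by probe, 39 of the 49 probes were detected on all WT arrays and 19 on all KO arrays. The share detected was 84.4% ± 1.18 in WT and 57.1% ± 4.08 in KO (SD, n = 3), against 49.5% ± 1.04 and 34.6% ± 0.32 of all probes. By the exact permutation test, two-sided, p = 0.1 for both differences, and 3 arrays against 3 cannot give a smaller one. Of the 40 probes past the filter, 25 had negative values, 6 were undetected on all KO arrays and none passed (smallest adjusted p = 0.074 with every probe tested, where 2.06% of probes were called). The standard error between beads was 1.79% to 9.32% of the signal, with a median of 3.41%.

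Shown are the promoters of Msmo1, Insig1, Acly and Elovl5, because the groups of these genes did not overlap. Scd1 has no entry in the table. Sequences are from RefSeq (GRCm38.p6), each as 250 bases before to 50 bases after the start, 5′ to 3′ on the gene's strand. Capitals mark CCAAT on either strand, the box bound by NF-Y, a factor known to act beside SREBP. Msmo1 lies at chr8:64733529-64733828 on the minus strand, Insig1 at chr5:28071162-28071461 on the plus strand, Acly at chr11:100527951-100528250 on the minus strand and Elovl5 at chr9:77917115-77917414 on the plus strand.
Msmo1: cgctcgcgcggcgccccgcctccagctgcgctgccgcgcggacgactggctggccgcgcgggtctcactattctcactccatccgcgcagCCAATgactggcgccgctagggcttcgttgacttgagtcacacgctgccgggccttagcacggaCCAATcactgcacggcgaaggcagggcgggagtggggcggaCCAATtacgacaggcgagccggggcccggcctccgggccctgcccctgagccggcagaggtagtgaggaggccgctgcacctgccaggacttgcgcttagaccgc
Insig1: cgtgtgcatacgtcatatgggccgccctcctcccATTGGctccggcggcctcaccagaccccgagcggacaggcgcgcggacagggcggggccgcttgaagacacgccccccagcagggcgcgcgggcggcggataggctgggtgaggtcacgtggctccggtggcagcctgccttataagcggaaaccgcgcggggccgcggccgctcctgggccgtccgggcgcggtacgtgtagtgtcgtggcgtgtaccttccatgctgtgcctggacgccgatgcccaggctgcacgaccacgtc
Acly: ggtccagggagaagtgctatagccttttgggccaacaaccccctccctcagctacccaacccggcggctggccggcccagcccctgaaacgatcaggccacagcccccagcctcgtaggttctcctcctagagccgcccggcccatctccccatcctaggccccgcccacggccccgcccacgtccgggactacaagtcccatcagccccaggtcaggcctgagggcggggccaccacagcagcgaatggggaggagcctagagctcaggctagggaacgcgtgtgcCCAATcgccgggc
Elovl5: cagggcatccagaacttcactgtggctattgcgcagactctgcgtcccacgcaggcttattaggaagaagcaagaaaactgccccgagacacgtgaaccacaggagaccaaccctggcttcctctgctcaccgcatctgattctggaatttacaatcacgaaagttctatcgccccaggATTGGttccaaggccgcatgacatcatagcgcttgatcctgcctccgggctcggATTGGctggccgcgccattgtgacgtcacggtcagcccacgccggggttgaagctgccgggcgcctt

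Msmo1 held 3 CCAAT boxes, beginning 160, 96 and 55 bases before the start. Elovl5 held 2, at 71 and 17 bases before it, Insig1 held 1 at 216 bases, and the box of Acly lay after the start. Of the 26 genes of the 32 with a promoter in the table, 22 held CCAAT (84.6%), against 41.1% of all 27025 genes there. In the sterol arm 14 of 15 held it and in the fatty acid arm 5 of 8. GGGCGG, the box of Sp1, was found in 21 of 26 (80.8%) and in 38.2% of all genes. The E-box CACGTG was found in 5 of 26 (19.2%) and in 8.09% of all. The sterol element TCACNCCAC was found in 1 of 26, Hmgcs1, and in 1.44% of all. Both strands were searched, base composition was not matched, and a match is a description of the sequence.

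Of the wider lipid genes, the SREBP processing list held the only decrease that passed. Mbtps2, the protease that makes the last cut freeing SREBP, read 7.83, 8.24 and 7.79 in WT and 4.38, 4.44 and 4.45 in KO. It was detected on every WT array and no KO array by this probe, and the KO level was at least 5.93-fold lower (limma adjusted p = 0.0067). The KO values lay at background, with an SD of 0.039 against 0.25 in WT, so that p rests partly on the spread of background. A second bright probe, also detected on no KO array, was at least 5.84-fold lower (adjusted p = 0.0090 when probes were tested one by one). A dim probe, detected on 1 KO array, measured a log2 fold change of -1.06 (adjusted p = 0.30). Without WT A, B or C the adjusted p was 0.089, 0.065 and 0.061, at log2 fold changes of -3.59, -3.39 and -3.61.

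Of the 9 tested genes in that list, 1 fell, 0 rose and 8 did not pass, where 1.59% of all items were called lower and 2.41% in either direction. Their median was -0.53, against -0.088 over all items. Scap, the SREBP escort, measured a log2 fold change of -0.55 (adjusted p = 0.58), Mbtps1, the protease of the first cut, one of -0.58 (adjusted p = 0.74) and Insig2, the paralog of Insig1, one of 1.55 (adjusted p = 0.41). No gene of the isoprenoid branch list passed (11 tested, median -0.34, smallest adjusted p = 0.13), with Coq2, a ubiquinone enzyme, at -1.71 and Rabggta, a prenyltransferase subunit, at 1.81.

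None of 13 cholesterol transport and esterification genes passed (median -0.0018). Lrp8, a lipoprotein receptor, was nearest, with its brightest probe undetected on KO arrays, and it measured at least 1.46-fold lower there (adjusted p = 0.074). None of the 12 tested genes of the other fatty acid list passed (median -0.19). Acsl4, an acyl-CoA synthetase, measured a log2 fold change of -2.19 (adjusted p = 0.096) and Idh1, an NADPH source, one of -1.64 (adjusted p = 0.11). The Acsl4 probe was detected on 1 KO array, with KO A and KO B at background, so the size of its change is uncertain.

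None of 8 glycerolipid synthesis genes passed, and their median was 0.47. Of 16 genes of fatty acid oxidation and uptake, 1 rose, 0 fell and 15 did not pass, where 0.826% of all items were called higher. Their median was -0.26, against -0.088 over all items. The gene that rose was Cd36, a fatty acid transporter, from 5.14, 4.62 and 5.56 in WT A, B and C to 9.70, 9.08 and 10.08 in KO, a log2 fold change of 4.51 (adjusted p = 0.010). It was detected on 2 WT arrays and all KO arrays. It was not past the threshold without WT A, B or C (adjusted p = 0.095, 0.075 and 0.062). The higher mesenchyme and erythroid marker sums stood beside this increase, and their part in it was not tested.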

How the data were processed

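RNA from 3 KO and 3 WT embryos, cut from 10 µm sections by laser microdissection, was amplified and hybridised to Illumina BeadChips, per the labels' protocols. The deposited scanner table holds the mean bead intensity per probe, its standard error and a detection p-value, per the file headers. The values are on a linear scale. The submitters' processing notes name GenomeStudio, with its version and settings not given in the sources used here. A processed intensity table from the authors, of unstated normalization, served as an alternative only. The labels' tissue name was followed, although their extraction text speaks of prospective lens.

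Background correction and quantile normalization used the neqc function of limma 3.58.1 (R 4.3.3, offset 16, log2). Probes with detection p below 0.05 on at least 3 of 6 arrays were kept, 20853 of 45281, and the brightest probe stood for a gene. Array annotation named 34885 probes with 1 gene. KO and WT were compared with lmFit and eBayes, genotype as the only term, with Benjamini-Hochberg adjustment over 13916 items. The fit was tried on simulated data that gave both groups the same SD, unlike these arrays. That trial cannot show how the fit behaves where the SDs differ or where values lie at background. Where a probe was undetected on every array of a group, the bound sets the bright group's mean against whichever is higher per array, the probe's own signal or the lowest signal detected. P-values measure the spread between arrays of 1 embryo each, and 3 arrays per group limit the precision. The fit pools the spread of both groups, although the median SD over all items was 0.80 in KO and 0.30 in WT. For a probe undetected on all KO arrays, the KO spread is that of background, as for Mbtps2 and Lrp8 (SD 0.039 in KO for both). Level values are log2 intensities and are compared within a probe. Figures used matplotlib 3.10.9 under Python 3.11.15.

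The members and lists were chosen with earlier results of these data known. Named outside the members were genes of 6 lipid lists that passed, or those with the smallest p, and Scap, Mbtps1 and Insig2 were chosen after their values were seen. The labels do not say that letters A to C pair embryos, and embryos of equal letter did not deviate together (correlation of deviations -0.029, -0.0043 and -0.0052 for A, B and C). These correlations cannot show whether such embryos shared a litter.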

Additional observations from a re-analysis of the deposited data

How the results depend on the processing

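With 3 embryos a group precision was limited, most for Elovl1, Nsdhl and Fads2, whose KO arrays differed most. KO values under about 5.4 on the log2 scale were background. Of the alternative values of single genes, 390 kept direction and side of the threshold, 10 passed it newly, 8 no longer passed it and 39 changed sign; the cause was not tested. The 8 were those of Mbtps2 and Cd36 without any 1 WT array and with the replicate block.

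The count of called items, 336, was 1068 with median scaling, 2068 with no scaling between arrays, 660 with no filter, 189 with detection on all 6 arrays, 185 with array weights, 764 at an adjusted p below 0.10 and 2702 at an unadjusted p below 0.05. It ran from 12 (without WT A) to 563 (without KO B) when 1 array was left out, with 19 without WT B, 28 without WT C, 540 without KO A and 560 without KO C. Of the calls, 65.8% were lower in KO, against 90.2% with median scaling, 95.8% with no scaling, 51.8% with cyclic loess, 52.9% with no filter and 49.7% with detection on all 6 arrays. With the letter as a replicate block limma called 0 items, with 2079 at an unadjusted p below 0.05. The labels do not say that equal letters mark a pair. The median over all items, -0.088, became -0.49 with median scaling, -0.81 with no scaling and 0.088 with cyclic loess. Relative to it the sterol arm stood at -0.23, -0.19, -0.19 and -0.27, and the fatty acid arm at -0.27, -0.10, -0.10 and -0.26, in that order.

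Genes of the 23 that passed numbered 1 with no background correction, 2 with median scaling, 3 with no scaling, 1 with no filter, 1 with detection on all 6 arrays, 2 at an adjusted p below 0.10, 3 at an unadjusted p below 0.05, and 0 to 1 with 1 array left out. The sterol median was -0.67 with median scaling, -0.99 with no scaling and -1.68 by the second brightest probe (3 genes), and -0.46 to -0.25 with 1 array left out. The median of -1.68 is the Sqle value, whose probe was detected on KO B alone of the KO arrays, so its size is uncertain. The fatty acid median was -0.063 with no background correction and -0.91 with no scaling, and -0.56 to 0.043 with 1 array left out.

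Fitted signs turned as follows. With median scaling Lss was -0.28, Nsdhl -0.50, Ebp -0.66 and Fads2 -0.26. With no scaling Lss was -0.60, Nsdhl -0.82, Ebp -0.98, Srebf1 -0.28, Scd2 -0.19, Fads1 -0.12 and Fads2 -0.58. With cyclic loess Mvd was 0.0016 and Elovl1 0.085, and with no background correction Elovl1 was 0.11. By the second brightest probe Elovl6 was 0.78. Fitted values by that probe were -2.04 for Lss, -0.99 for Srebf1 and -0.86 for Fads1, but it was undetected on all KO arrays, so for Srebf1 and Fads1, dim in WT too, they show no reversal, and Lss has only its bound. These probes enter the mean over probes, by which Lss was -0.59, Srebf1 -0.16 and Fads1 -0.27. In the authors' processed values Nsdhl was -0.022 and Ebp -0.058. With 1 array left out Mvd ran from -0.54 to 0.25, Lss from -0.26 to 0.32, Nsdhl from -1.08 to 1.08, Hsd17b7 from -0.84 to 0.20, Ebp from -0.43 to 0.29, Elovl1 from -1.29 to 1.17, Fads1 from -0.10 to 0.70 and Fads2 from -0.38 to 1.34. Without a change of sign Dhcr7 ran from 0.43 to 1.92, Srebf2 from -1.79 to -0.11, Srebf1 from 0.23 to 0.94, Pmvk from -1.30 to -0.22 and Sqle from -1.06 to -0.24.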
